A study of Homo sapiens with 7 samples.

Results

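The genes described here are 10 members of the NRF2 antioxidant pathway in the human liver cancer cell line HepG2: the factor itself (NFE2L2), its inhibitor (KEAP1), and the targets NQO1, HMOX1, GCLC, GCLM, TXNRD1, SRXN1, SLC7A11 and ME1. They were taken by symbol from the RNA-Seq table, where they hold 11 of 30032 loci, and each was followed over its listed locus plus 10 kb on either side in the lists of nucleosomes that carried a histone mark. 9 of the 10 genes were transcribed and carried activation marks, whereas ME1 was near 0 in RNA-Seq, carried no activation mark, and was the only member with H3K27me3. The series has 7 samples of HepG2, with 1 sample each for native MNase-Seq, which maps nucleosomes without crosslinking, for RNA-Seq, and for ChIP-Seq on crosslinked, sonicated chromatin with antibodies to 3 activation marks (H3K4me3, H3K9ac, H3K27ac) and 2 repressive marks (H3K27me3, H3K9me3). The labels give freshly cultured cells with no treatment, no second cell type and no replicate samples. There were therefore no groups to compare, no P value was computed, and every comparison below sets genes of 1 culture condition side by side.

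HepG2 is an established hepatocellular line used as a model of liver cells. The hepatocyte markers ALB, APOA1, APOB, TTR, SERPINA1, FGB and TF and the fetal liver marker AFP were all transcribed, from 56.6 to 10011 FPKM. The markers of blood, endothelial cells and fibroblasts stayed between 0 and 0.182. Of the pluripotency markers, POU5F1 was at 3.03 and NANOG at 0.716. FPKM divides the RNA fragments of a gene by its length and by the sequencing depth, so levels can be set side by side between genes. A nucleosome position is a stretch of 140 bp as listed, and the lists of marked positions hold from 26271 (H3K27me3) to 95886 (H3K27ac) of the 14217405 mapped positions, without reads or enrichment per position. Together they hold fewer entries than the marked nucleosomes that the study counts, so an absence of a mark below means only that these lists have no entry there. The position with H3K4me3, H3K9ac and H3K27ac and no other mark is the trivalent "T" of the study.

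NRF2, encoded by NFE2L2, is a bZIP transcription factor that KEAP1 binds in the cytoplasm and presents to the CUL3 ubiquitin ligase for degradation. Electrophiles and oxidants modify KEAP1, NRF2 then accumulates, pairs with a small MAF protein in the nucleus and binds the antioxidant response element in front of genes for glutathione synthesis, thioredoxin reduction, quinone and heme breakdown and NADPH supply. In the liver this pathway serves the detoxification of drugs and reactive metabolites, and it is often constitutively active in liver tumours.

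The element has the core TGACNNNGC, and promoters were searched for it on both strands. RefSeq promoter windows (GRCh38.p14, 250 bases before to 50 after a start) were given for 8 members with 11 starts, and not for HMOX1 and SLC7A11. The core was found at 4 members, KEAP1, GCLM, TXNRD1 and ME1. It was found at 16.1% of all 27303 genes with a window, and a match is a match of letters only. The sites that carry it are shown here with the core in capitals, read 5′ to 3′ on the strand of the gene; in KEAP1, GCLM and TXNRD1 the letters appear as their reverse complement.
KEAP1, its downstream start: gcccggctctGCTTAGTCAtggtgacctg
GCLM: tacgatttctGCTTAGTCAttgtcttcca
TXNRD1, the internal start: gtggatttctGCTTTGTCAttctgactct
ME1: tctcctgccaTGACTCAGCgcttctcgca

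These stretches lie at chr19:10502784-10502812 (KEAP1, minus strand), chr1:93909446-93909474 (GCLM, minus), chr12:104286920-104286948 (TXNRD1, plus) and chr6:83431170-83431198 (ME1, minus) in GRCh38.p14. KEAP1 and GCLM hold the same core, TGACTAAGC, beginning 31 and 34 bases before their starts. In TXNRD1 the core is TGACAAAGC and begins 102 bases before the internal start. ME1 holds the longer core TGACTCAGC, which begins 137 bases before its start and occurs at 0.689% of all genes with a window. Among the windows of the 8 members searched, that of ME1 alone held it. Sequence outside the windows was not searched, so a member without a match may have one farther out. KEAP1 also holds TGACACGGC, TXNRD1 has TGACTTCGC and TGACGGAGC at its upstream start, and ME1 has TGACGGTGC just inside its transcript. The silent member thus has a promoter with the letters of this core, and its 250 bases before the start are shown beside those of GCLM, which was transcribed, with each core in capitals.
ME1: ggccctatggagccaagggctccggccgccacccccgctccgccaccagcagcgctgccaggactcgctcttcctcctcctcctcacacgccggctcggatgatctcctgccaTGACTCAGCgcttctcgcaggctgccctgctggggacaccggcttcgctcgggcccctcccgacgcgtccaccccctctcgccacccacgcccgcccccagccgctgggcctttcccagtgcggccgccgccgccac
GCLM: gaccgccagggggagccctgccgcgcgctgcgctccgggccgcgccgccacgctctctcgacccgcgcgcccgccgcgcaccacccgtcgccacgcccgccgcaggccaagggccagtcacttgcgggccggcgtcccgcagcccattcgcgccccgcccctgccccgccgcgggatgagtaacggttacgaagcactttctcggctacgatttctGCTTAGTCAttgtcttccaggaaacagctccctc

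The first is chr6:83431052-83431301 and the other chr1:93909431-93909680, both on the minus strand. Most of these promoters are rich in CpG. Over the 11 starts the median GC content was 71.7% and the median ratio of observed to expected CpG 0.934, against 58.7% and 0.579 over 35114 promoters. ME1 had 73.7% GC and a ratio of 0.822, both above the medians of all promoters. The lowest ratios were 0.506 at NQO1 and 0.562 at the internal start of TXNRD1.

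Of the 10 members, 9 had an FPKM of at least 1, against 51.4% of the 22065 named loci with a strand. The median of the members was 33.2, against 1.26 over the named loci and 11.9 over the 11352 named loci of FPKM 1 or more. The table has values in 2 columns for the 1 sample, headed hepg2_hr2 and hepg2_hr3 and called run 1 and run 2 here. Whether they are separate cultures is not stated in the sources used here, and the spread between them may be technical. NQO1, a quinone reductase, was highest, with 282.7 in run 1 and 285.7 in run 2, and only 220 named loci lay above it. NFE2L2 followed with 108.9 and 110.8, and TXNRD1, the cytosolic thioredoxin reductase, with 87.7 and 87.9. HMOX1, the inducible heme oxygenase, had 47.5 and 46.6. SRXN1, which repairs overoxidised peroxiredoxins, had 38.5 and 39.0.

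The genes of glutathione synthesis and the inhibitor were lower and close to each other. GCLC, the catalytic subunit of glutamate-cysteine ligase, had 27.6 and 27.9. SLC7A11, the cystine importer of the plasma membrane, had 24.0 and 25.7. KEAP1 had 21.3 and 20.5, and GCLM, the modifier subunit of the ligase, had 16.8 and 17.1. ME1, the cytosolic malic enzyme that yields NADPH, had 0.0295 in run 1 and 0.132 in run 2, a low value in both columns; in bulk RNA, transcription in fewer cells and less RNA per cell cannot be told apart. The plot of FPKM by gene shows the 9 transcribed members above the median of the named loci of FPKM 1 or more and ME1 far below the median of all named loci.

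**Figure D1:**
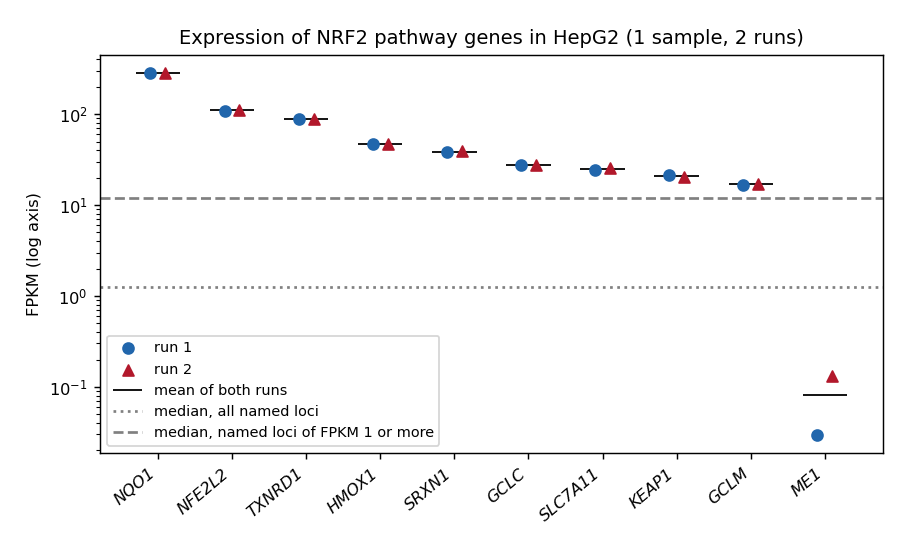
FPKM (log axis) of the 10 genes in run 1 (circles) and run 2 (triangles) of the 1 RNA-Seq sample, with their mean (black line) and the medians of all named loci (dotted, 1.26) and of named loci of FPKM 1 or more (dashed, 11.9). From NQO1 (mean 284.2) to GCLM (16.9) the columns nearly coincide, and ME1 (0.0809) lies apart.

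Among 6297 named loci of FPKM 10 or more, 95% had columns that differed by less than 0.17 on the log2 scale, with a median of 0.05. Set against this, each neighbouring pair in the order NQO1, NFE2L2, TXNRD1, HMOX1, SRXN1, GCLC, SLC7A11, KEAP1, GCLM and ME1 was farther apart, except GCLC and SLC7A11, whose log2 ratio of 0.16 was within the spread. The smallest step beyond the spread was from SLC7A11 to KEAP1, a ratio of 1.19. This spread is that of 1 gene between columns. It does not cover the error of comparing FPKM between different genes, which was not tested. NFE2L2 was 5.25 times KEAP1 in FPKM, GCLC was 1.64 times GCLM, and NQO1 was 16.8 times GCLM. GCLM, the lowest of the 9, was 209 times ME1. The last ratio is imprecise, since the columns of ME1 differ by 2.16 on the log2 scale.

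Over the 10 loci with their flanks, 160 of 4068 nucleosome positions were marked, or 3.93% (95% exact binomial interval 3.36 to 4.58), against 1.92% of the positions in the same windows of all named loci. The intervals cover counting error only, since each mark has 1 library. They treat positions as independent, although marked positions lie in stretches, so they may be too narrow. H3K4me3 was at 93 of the positions, H3K9ac at 81, H3K27ac at 103, H3K27me3 at 9 and H3K9me3 at 12. The exact combination "T" was most frequent, with 51 positions or 31.9% of the marked ones (24.7 to 39.7), and H3K27ac alone was next with 33 or 20.6% (14.6 to 27.7). Over all named loci these shares were 28.1% and 20.04%, both inside the members' intervals. H3K4me3/H3K27ac was at 10 positions or 6.25% (3.04 to 11.2), against 2.29% over all named loci, a difference that was not tested. The counts ranged from 8 marked positions at NFE2L2 to 31 at TXNRD1, with a median of 14.5, against 9 over the named loci and 13 over those of FPKM 1 or more. Per 100 positions the median was 4.77, against 3.64 over loci of FPKM 1 or more and 3.99 over those of 10 or more.

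**Figure D2:**
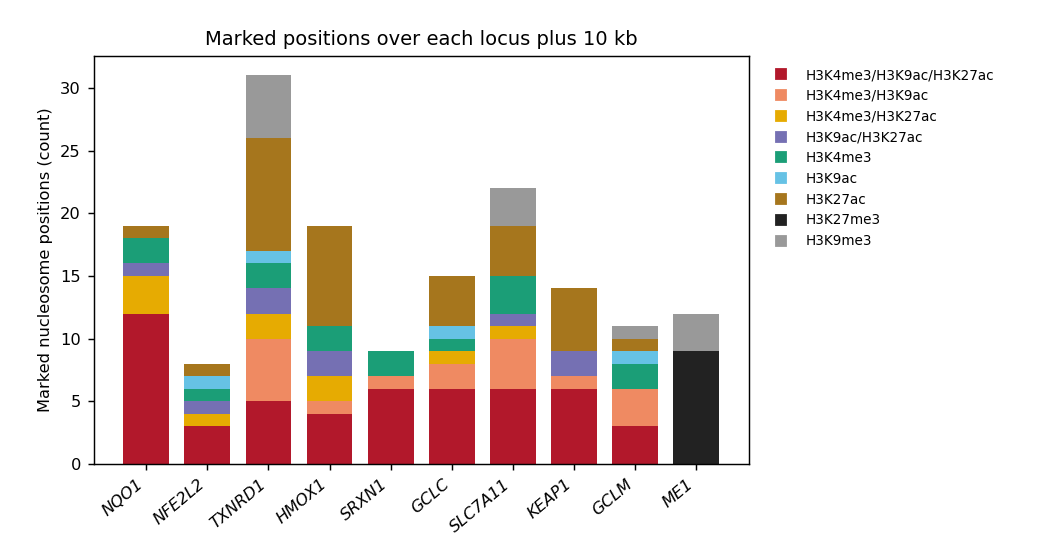
Marked nucleosome positions (count, stacked by the exact combination of marks) over each locus plus 10 kb, genes ordered by FPKM. "T" is at 9 genes with 3 to 12 positions, and the bar of ME1 holds 9 positions with H3K27me3 and 3 with H3K9me3.

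"T" lay within 2 kb of the listed transcription start site (TSS) at 6 of the 10 members, NFE2L2, KEAP1, HMOX1, GCLC, SRXN1 and SLC7A11. The share was 41.6% of all named loci and 71.6% of those of FPKM 1 or more, so the count is near the background of transcribed genes. Of the 9 transcribed members 6 had it, against 77.8% of loci of FPKM 10 or more, and 7 had H3K4me3 there, against 82.2%. These counts and shares rest on the listed TSS. At NQO1 and TXNRD1 all "T" lay farther downstream, as given below, and some named loci share their coordinates with another locus. The median number of "T" within 2 kb was 3 over all 10, and 3 over loci of FPKM 10 or more. Of the 26 "T" positions near the listed TSS of these 6 genes, 2 lay upstream of it, or 7.69%, while 22.6% did so over loci of FPKM 10 or more. The difference was not tested. The side of a position depends on the listed TSS, and RefSeq lists 2 starts for KEAP1 (585 bp apart) and for NFE2L2 (596 bp apart). Over the locus plus 10 kb, all 9 transcribed members had "T", as did 98.3% of loci of FPKM 10 or more. H3K27ac alone was found at 8 of them, against 58.8%, and H3K27me3 at 0, against 16.6%.

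**Figure D3:**
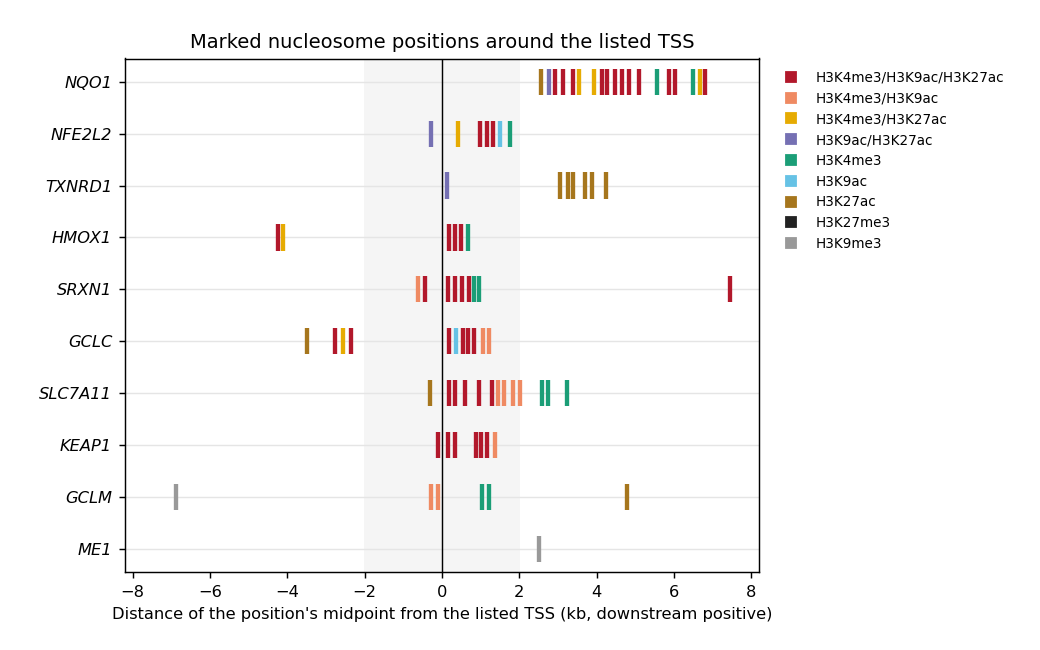
Marked nucleosome positions within 8 kb of the listed TSS of each gene (kb, downstream positive; each bar is 1 position, coloured by its combination of marks; grey shading, 2 kb on either side). "T" stands within 2 kb of the TSS at NFE2L2, KEAP1, HMOX1, GCLC, SRXN1 and SLC7A11, lies from 2.93 to 6.79 kb downstream at NQO1, and is absent from the window at TXNRD1, GCLM and ME1.

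Both regulators carried "T" at their starts. NFE2L2 is listed on chromosome 2 from 178095033 to 178129859 (hg19) on the minus strand, coordinates that it shares with the microRNA locus MIR3128 (0 FPKM). Its TSS had 7 marked positions from 0.285 kb upstream to 1.76 kb downstream. Of these 3 were "T", at 0.972, 1.17 and 1.32 kb, and the others were 1 each of H3K9ac/H3K27ac, H3K4me3/H3K27ac, H3K9ac and H3K4me3. RefSeq lists 2 starts for NFE2L2, 596 bp apart. Beyond the promoter only 1 position was marked, with H3K27ac alone at 13.6 kb. With 8 marked positions NFE2L2 had the lowest count of the 10, while per 100 positions its 2.64 was above the 1.02 of ME1.

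KEAP1, on chromosome 19 from 10596796 to 10614054 (minus), had 6 "T" within 2 kb, a number that placed it at the percentile 92.04 of loci of FPKM 1 or more. They ran from 0.093 kb upstream to 1.16 kb downstream and ended in a position with H3K4me3/H3K9ac at 1.38 kb. A separate group of 7 acetylated positions without H3K4me3 lay from 16.8 to 18.2 kb, around the lower end of the listed locus. 5 of them had H3K27ac alone and 2 had H3K9ac/H3K27ac. Neither regulator had a position with H3K27me3 or H3K9me3.

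At NQO1, on chromosome 16 from 69743097 to 69764164 (minus), no position within 2 kb of the listed TSS was marked. All 19 marked positions formed 1 stretch from 2.55 to 6.79 kb downstream, with 17 positions carrying H3K4me3 and 12 being "T". The number of "T" was the highest of the 10 members and at the percentile 92.2 of loci of FPKM 1 or more, over the locus plus 10 kb. The table does not say which transcript sets the upper end of the locus, so the absence of marks at the listed TSS depends on that end. The RefSeq windows hold 1 start for NQO1. The builds were not converted, so that start was not placed relative to the listed TSS or the marked stretch. The microRNA locus MIR1538 (0 FPKM) has its listed TSS 25.2 kb downstream, with no marked position in this window within 2 kb of it.

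HMOX1, on chromosome 22 from 35777060 to 35790207 (plus), had 3 "T" in a row at 0.184, 0.342 and 0.502 kb downstream and H3K4me3 alone at 0.667 kb. A pair of positions 4.25 and 4.11 kb upstream carried "T" and H3K4me3/H3K27ac, and 1 position 8.73 kb upstream carried H3K9ac/H3K27ac. HMOX1 had the densest marking of the 10, at 10.9 per 100 positions, and part of it lay at a neighbouring gene. MCM5, a subunit of the replicative helicase with an FPKM of 27.7, has its TSS 18.8 kb downstream of that of HMOX1, and 9 of the 19 marked positions lay within 2 kb of it, none of them "T".

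The 2 subunits of glutamate-cysteine ligase differed in their promoters. GCLC, on chromosome 6 from 53362140 to 53409927 (minus), had 4 "T" between 0.170 and 0.835 kb downstream with H3K9ac alone among them at 0.370 kb, followed by H3K4me3/H3K9ac up to 1.21 kb. A second group lay from 3.48 to 2.35 kb upstream with 2 "T", H3K27ac alone stood at 29.6, 32.9 and 33.1 kb inside the locus, and H3K4me3 alone at 51.7 kb beyond its end. GCLM, on chromosome 1 from 94350795 to 94375308 (minus), had no "T" and no H3K27ac within 2 kb of its TSS. It carried H3K4me3/H3K9ac at 0.277 and 0.099 kb upstream and H3K4me3 alone at 1.04 and 1.21 kb downstream. The gap without a nucleosome midpoint across its TSS was 1000 bp, the longest of the 10, and the core shown above begins 34 bases before its RefSeq start. All 3 "T" in the window of GCLM lay within 2 kb of the TSS of DNTTIP2 (FPKM 24.1), a factor of ribosomal RNA processing whose TSS is 30.5 kb downstream of that of GCLM.

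SLC7A11, on chromosome 4 from 139085248 to 139163540 (minus), had an ordered string of 13 marked positions at its TSS. After H3K27ac alone 0.322 kb upstream came 5 "T" from 0.176 to 1.28 kb, then 4 positions with H3K4me3/H3K9ac from 1.45 to 2.01 kb, then 3 with H3K4me3 alone from 2.57 to 3.23 kb. An internal group from 41.7 to 42.4 kb held 1 "T", 1 H3K4me3/H3K27ac, 1 H3K9ac/H3K27ac and 2 with H3K27ac alone, and 1 more with H3K27ac alone stood at 43.4 kb. H3K9me3 was at 3 positions, at 25.7, 35.0 and 88.0 kb. No other named TSS lay in this window.

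SRXN1, on chromosome 20 from 627268 to 633890 (minus), is the shortest of the 10 loci and all 9 of its marked positions carried H3K4me3. From 0.627 kb upstream to 0.953 kb downstream they read H3K4me3/H3K9ac, 5 "T" and 2 with H3K4me3 alone, and 1 more "T" lay 7.43 kb downstream. "T" made up 66.7% of its marked positions, the highest share of the members.

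TXNRD1 is listed on chromosome 12 from 104609559 to 104744062 as a plus-strand locus, used here, and again as a locus without strand at 0 and 0.127 FPKM. The coordinates are also those of EID3 (FPKM 0.119). At the listed TSS only 1 position was marked, with H3K9ac/H3K27ac at 0.141 kb, and 6 positions with H3K27ac alone followed from 3.06 to 4.25 kb. All 5 "T" stood much farther in, between 71.3 and 73.4 kb, in a stretch of 15 marked positions from 70.5 to 73.8 kb that opened with 3 positions of H3K27ac alone. RefSeq lists 2 starts for this gene, 71.3 kb apart in GRCh38.p14. The builds were not converted, but the distance is that of the marked stretch from the listed TSS. H3K4me3/H3K9ac and H3K4me3 alone stood side by side at 39.8 and 40.1 kb, and H3K4me3/H3K9ac and H3K4me3/H3K27ac from 60.6 to 60.9 kb. H3K9me3 was at 5 positions between these regions and beyond, from 16.7 to 90.2 kb.

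ME1, on chromosome 6 from 83920110 to 84140938 (minus), is the longest of the 10 loci at 220.8 kb. Of 1175 positions in its window none carried H3K4me3, H3K9ac or H3K27ac. H3K27me3 was at 9 positions from 33.2 to 213.4 kb downstream of the TSS and H3K9me3 at 3, at 2.52, 148.9 and 170.5 kb. The closest neighbours among these 12 were 1635 bp apart, so in these lists they stand as single positions spread over the gene. No position within 2 kb of the TSS was marked. Whether they are thinly called parts of a broader domain was not tested. The share of positions with H3K27me3 was 0.766% (95% exact binomial interval 0.351 to 1.45). This was at the percentile 86.0 of 8072 named loci of FPKM under 0.1, and at 96.5 of the 1860 of them that are at least 100 kb long. Of the loci of FPKM under 0.1, 44.3% had H3K27me3 over the locus plus 10 kb, and 52.9% had no activation mark. H3K9me3, found in the windows of 4 members (ME1, TXNRD1, SLC7A11 and GCLM), was in those of 31.9% of all named loci.

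**Figure D4:**
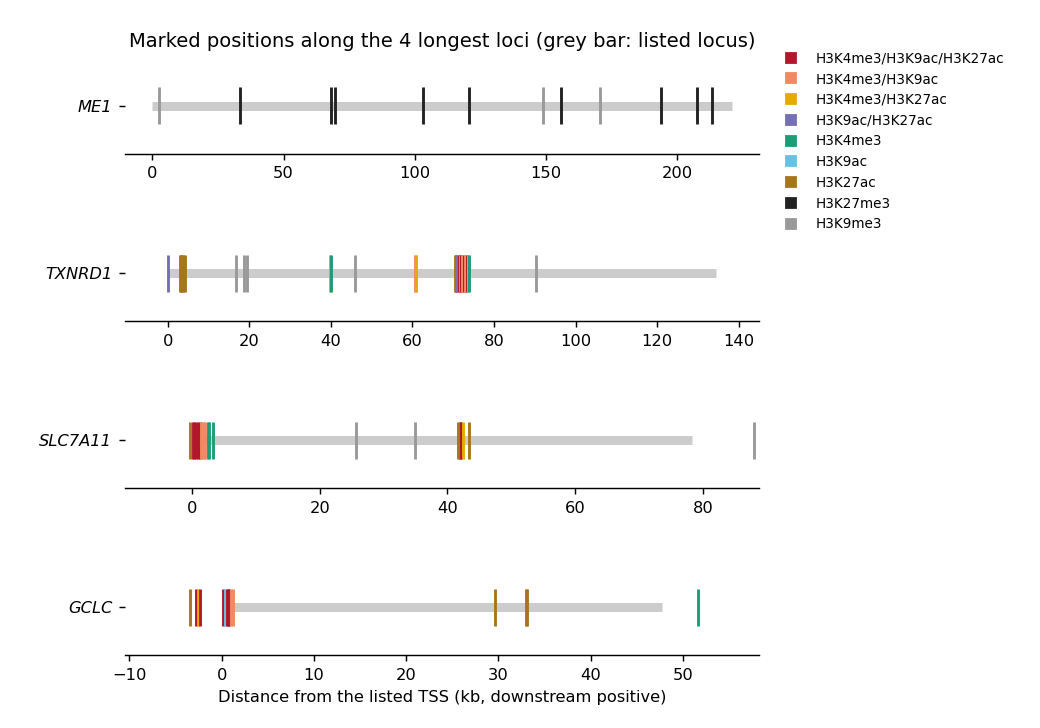
Marked nucleosome positions along the 4 longest loci (kb from the listed TSS; grey bar, listed locus; each bar is 1 position). ME1 has only H3K27me3 and H3K9me3, TXNRD1 has its "T" between 71.3 and 73.4 kb, and SLC7A11 and GCLC have "T" at the TSS with further marked positions inside the locus.

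The distance of a position from the listed TSS went with its combination of marks. Of the 139 member positions with an activation mark, 47 lay within 2 kb of the gene's own TSS, and 26 of these, or 55.3%, were "T" while 1 had H3K27ac alone. Of the 78 that lay within 2 kb of no listed TSS of a named locus, 22 were "T" and 27 had H3K27ac alone, or 34.6%. The stretches of NQO1, with 12 "T", and of TXNRD1, with 5, are in this second group. RefSeq lists starts of TXNRD1 71.3 kb apart, the distance of that stretch, and the listed TSS of NQO1 may not be its start. Whether promoter and other positions differ in this way was therefore not tested. The remaining 14 belonged to the TSS of MCM5 and DNTTIP2.

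The pathway beyond the 10 members was read from 7 lists of 48 genes, all of which were found in the table, SELENOS under its older symbol SELS. All 48 had an FPKM of at least 1, against 51.4% of the 22065 named loci. Of the 48, 44 had at least 10, as had 6297 of the named loci, and their median was 62.5. Among the members and these genes together ME1 alone was under 1. The lists were chosen with earlier results of these data known, so these counts do not describe the pathway as a whole. "T" was within 2 kb of the TSS of 41 of the 48, beside 71.6% of loci of FPKM 1 or more and 77.8% of those of 10 or more. Among the controllers of NRF2, SQSTM1, an autophagy receptor that binds KEAP1, was highest at 150.3, and the small MAF gene MAFF lowest at 3.60. CUL3 and RBX1, which build the ligase, had 14.7 and 74.8. BACH1, a repressor of the element, had 12.7.

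The effector lists had higher medians, from 48.1 (iron and heme) to 190.9 (superoxide and peroxide), against 14.7 for the controllers. The values of single genes overlapped between them. In the glutathione list (median 67.6) GPX2 had 393.3, in a row it shares with RAB15, and GSTP1 only 1.86, with no H3K4me3 within 2 kb of its TSS and 1 position with H3K27me3. In the thioredoxin list PRDX1 had 711.8 and TXNRD2 11.8. In the NADPH list (median 100.6) the isocitrate dehydrogenase IDH1 was highest at 505.0. In the list of conjugation, reduction and export AKR1C1 had 433.3 and ABCC3 13.9. Of iron and heme genes, the ferritin light chain FTL had 8062 and FECH 5.91, and of the superoxide and peroxide genes SOD1 had 252.5 and CAT 48.1. FTL, AKR1C1, GSTA1 and PRDX1 have close paralogs or pseudogenes, whose part in these values was not tested.

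Listed genes without H3K4me3 within 2 kb of the TSS included MAFG, GSTA1, GSTP1, AKR1B10, AKR1C1 and OSGIN1. MAFG and OSGIN1 are listed together with another gene (SIRT7 and NECAB2), and which gene sets the listed TSS was not tested. Over the locus plus 10 kb, MAFG had 12 "T", AKR1B10 had 5, OSGIN1 4 and AKR1C1 2, while GSTA1 and GSTP1 had 0. Since "T" includes H3K4me3, none of it could lie within 2 kb of these starts.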

How the data were processed

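Each assay had 1 sample of HepG2. The submitters' processing notes name hg19, BWA for MNase-Seq and ChIP-Seq, and TopHat2 2.1.0, Bowtie, HOMER 4.7 and edgeR for RNA-Seq. The authors called nucleosome positions with DANPOS, called histone peaks on these positions with NUCLIZE, filtered them by shape and by enrichment over local background and input, and deposited coordinates only. The authors deposited FPKM in 2 columns beside fold changes and p-values of their own comparison, which were not used; depth in reads is unknown and the gene annotation is not given in the sources used here. A peak marked the position whose identifier it carries. A position was in a window if its midpoint was. Strand came from 3 ascending runs of locus numbers per chromosome, and it was that of RefSeq at 95.2% of 12947 named loci compared, at 99.38% of the 8594 with coordinates of their own, and at all 8 members compared. Stretches join activation-marked positions at most 1000 bp apart. Matching and counting were tested on simulated data.

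Named are the 10 members, named loci whose TSS lies in their windows, and the highest, the lowest and the H3K4me3-free gene of each list; CUL3, RBX1 and BACH1 were added after their values were seen, and the marker genes check the cell type; 1 gene that the rule names is not reported here. The members and lists were chosen with earlier results of these data known. Sequences are from RefSeq (GRCh38.p14). Alternatives covered the columns, limits, windows, matching, background and motif. The tools were numpy 2.4.6, scipy 1.17.1, pandas 2.3.3 and matplotlib 3.10.9 under Python 3.11.15.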

Additional observations from a re-analysis of the deposited data

How the results depend on the processing

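Of 27 alternatives to 8 summary values, 22 left the value within its limits. Some limits were loose. For counts they were a fold range, and the median number of "T" near the TSS passed with 2 (window of 1 kb) and 4.5 (5 kb), against 3. For the median FPKM the limit was the standard deviation of the 2 column medians, so either column alone could hardly leave it. The count of members at an FPKM of 1 or more was 9 with either column alone and with a limit of 5. The median FPKM was 38.7 without ME1, a setting added after the data were seen, against 33.2 with it. The median percentile of the members' FPKM among named loci, 88.8, was 82.4 among loci of FPKM 0.1 or more and 89.6 among loci with coordinates of their own. The median of marked positions fell from 14.5 to 9 with no flank. A match to the core of the antioxidant response element was in 1 member in place of 4 with the longer core, since it fixes 3 more letters. "T" near the TSS was at 7 members with a window of 5 kb, which reached NQO1. Anywhere in the locus plus 10 kb and away from other named TSS, also added, it was at 8. A stricter peak threshold could not be set, because the lists hold no score. No paired analysis was possible because each assay has 1 sample.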

Other observations

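The spacing of nucleosome positions at the starts was a further measure that no mark enters. The gap between the neighbouring midpoints on either side of the listed TSS had a median of 375 bp over the 10 members, against 335 bp over named loci of FPKM 1 or more and 230 bp over those under 0.1. ME1 had the shortest gap of the 10, at 178 bp, and NQO1, whose marks lie away from its listed TSS, had 227 bp. GCLM had 1000 bp, NFE2L2 692 bp, SRXN1 601 bp and SLC7A11 498 bp. TXNRD1 had 388 bp, HMOX1 362 bp, GCLC 357 bp and KEAP1 250 bp. Within 2 kb of the TSS the number of positions ranged from 15 at GCLM to 23 at NQO1. Each gap rests on called positions of 1 MNase-Seq library, with no occupancy given.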
